A study of Mus musculus with 10 samples.

Results

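Interferon-stimulated genes were described in microglia, the resident macrophages of the brain, as a named set of 48 genes read from the count tables of all 10 single cell libraries. The set was taken by gene symbol from the 18292 symbols in the tables, and a gene missing from a table was counted as 0. All 48 genes had a UMI (a unique molecular identifier, 1 per captured RNA molecule) in at least 1 library. A total of 47 passed the filter on low counts and were tested among 12157 genes, and *Ifi44*, with 25 UMIs in all, was not.

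Interferons are secreted antiviral cytokines. Type I interferons bind the receptor made of Ifnar1 and Ifnar2, and type II interferon binds the receptor made of Ifngr1 and Ifngr2. The receptors act through Jak kinases on Stat proteins. Complexes that hold Stat2 and Irf9 bind the interferon-stimulated response element in DNA, and a second element, the gamma-activated site, is known above all from the type II response. The genes these factors switch on make proteins that sense, block or destroy viral nucleic acids, and microglia are among the brain cells that carry this programme.

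All mice were C57BL/6, and every sample was sorted as live CD11b positive, CD45 intermediate cells. Adult microglia were isolated directly from the brain. *In vitro* microglia came from mixed glial cultures of newborn cortex kept for 3 weeks, and slice microglia came from brain slices of newborn pups cultured for 1 day, 1 week or 3 weeks. The cultured groups therefore differ from adult in the age of the donor animals as well as in culture. Each group had 2 libraries, which are labelled as biological replicates and are the unit of replication. Levels are CPM, the UMIs of a gene scaled to a common library total, after TMM scaling, and since the libraries are 3' tagged, a level is a share of molecules and is not divided by gene length. Genes were called with edgeR's quasi-likelihood test on summed counts of each library at FDR < 0.05 and a fold change above 1.5. In summed counts, fewer expressing cells and less RNA per cell cannot be told apart.

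The 19059 cells kept were unevenly spread, with 3799 in adult replicate 1 and only 61 in slice 1 week replicate 2, and total UMIs per library ran from 385373 to 39689540. No 2 libraries shared more than 23 cell barcodes. Adult replicate 1 and slice 3 weeks replicate 1 carry another study label than the other 8 libraries. The 12 microglia markers summed to between 59711 and 63030.4 CPM in adult and to between 11829 and 44206 CPM in the other groups. Libraries also differed in the RNA of other cells. The 10 neutrophil markers summed to 7419.6 and 22075 CPM at 1 day and to 43056 and 1018 CPM at 1 week, against at most 192 CPM in every library of the other groups. The 5 erythrocyte markers summed to 1680.1 CPM in adult replicate 1 and 3324 CPM in slice 1 day replicate 1, and to at most 1.03 CPM in the other 8 libraries.

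Promoters of the genes that the results turn on are printed first. RefSeq promoter windows of 300 bases, from 250 before to 50 after the start of a gene in build GRCm38.p6, were found for 38 of the 48 genes. No window was found for *Rtp4*, *Dhx58*, *Zbp1*, *Oas2*, *Ifi27l2a*, *Mx1*, *Usp18*, *Parp14*, *Parp9* and *Ifi204*. The response element was searched as GAAANNGAA on both strands and the gamma-activated site as TTCNNNGAA, which reads the same on both strands. The windows of *Isg15* and *Ifit1* are shown as genes that were high at 1 day, those of *Ifitm2* and *Ifitm3* as close relatives with unlike levels at 3 weeks, and that of *Gbp7* as a gene called lower in every cultured group. They are written in lower case along the strand of the gene, with matches to the response element in capitals.
*Isg15*, chr4:156200769-156201068, minus strand: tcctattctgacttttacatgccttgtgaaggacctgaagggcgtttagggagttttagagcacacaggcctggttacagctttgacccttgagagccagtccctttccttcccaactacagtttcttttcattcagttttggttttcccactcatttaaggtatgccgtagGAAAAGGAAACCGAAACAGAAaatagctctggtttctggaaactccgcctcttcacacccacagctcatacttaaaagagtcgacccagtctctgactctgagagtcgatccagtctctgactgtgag
*Ifit1*, chr19:34640639-34640938, plus strand: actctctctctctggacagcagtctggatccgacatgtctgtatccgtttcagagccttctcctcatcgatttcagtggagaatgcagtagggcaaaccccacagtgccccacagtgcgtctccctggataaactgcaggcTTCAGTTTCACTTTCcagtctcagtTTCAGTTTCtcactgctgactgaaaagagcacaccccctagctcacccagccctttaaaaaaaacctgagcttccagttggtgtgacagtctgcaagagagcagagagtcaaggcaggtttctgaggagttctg
*Ifitm2*, chr7:140955912-140956211, minus strand: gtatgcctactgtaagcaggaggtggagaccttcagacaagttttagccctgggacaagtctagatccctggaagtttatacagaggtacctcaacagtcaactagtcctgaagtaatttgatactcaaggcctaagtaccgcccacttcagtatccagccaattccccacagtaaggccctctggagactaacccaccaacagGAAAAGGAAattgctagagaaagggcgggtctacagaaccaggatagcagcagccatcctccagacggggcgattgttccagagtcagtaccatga
*Ifitm3*, chr7:141010695-141010994, minus strand: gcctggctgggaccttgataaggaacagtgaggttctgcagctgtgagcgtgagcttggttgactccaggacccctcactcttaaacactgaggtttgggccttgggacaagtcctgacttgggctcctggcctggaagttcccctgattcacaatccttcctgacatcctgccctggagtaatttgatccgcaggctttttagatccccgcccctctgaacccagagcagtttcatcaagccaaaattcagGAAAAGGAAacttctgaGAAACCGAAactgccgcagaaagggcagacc
*Gbp7*, chr3:142530086-142530385, plus strand: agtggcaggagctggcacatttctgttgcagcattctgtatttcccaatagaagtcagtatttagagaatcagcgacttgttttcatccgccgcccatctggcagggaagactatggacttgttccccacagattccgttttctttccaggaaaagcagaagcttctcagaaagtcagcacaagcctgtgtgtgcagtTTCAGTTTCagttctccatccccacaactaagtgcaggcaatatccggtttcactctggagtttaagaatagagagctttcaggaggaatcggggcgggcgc

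The *Isg15* window held 3 overlapping matches, which begin 78, 72 and 66 bases before the start of the gene, and the *Ifit1* window held 3 that begin 109, 103 and 84 bases before it. *Ifitm2* held 1 match beginning 46 bases before its start and *Gbp7* 1 beginning 52 bases before. In *Ifitm3*, 2 matches begin at bases 3 and 20, counted from 1 at the start of the gene. Of the 38 genes with a window, 20 (52.6%) held a match to the response element, against 9.76% of the 27025 genes in the table, and 10 (26.3%) held a match to the gamma-activated site, against 9.55%. Matches to both elements were found in 5 of the 38 genes, and they overlapped each other in 2 of the 46 windows these genes have. Interferon-stimulated genes are known for these elements, so the shares describe the set, and a match is not a measured binding site.

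The level of each gene in each library is plotted by role. Levels ran from 0 to 1498 CPM. By mean over the groups, the 5 highest were *Ifitm2*, *Ifi27l2a*, *Bst2*, *Ifitm3* and *Ifi30*, with 395, 374, 350.0, 271 and 254 CPM. In adult microglia *Bst2* and *Ifi30* were the highest of these 5.

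**Figure D1:**
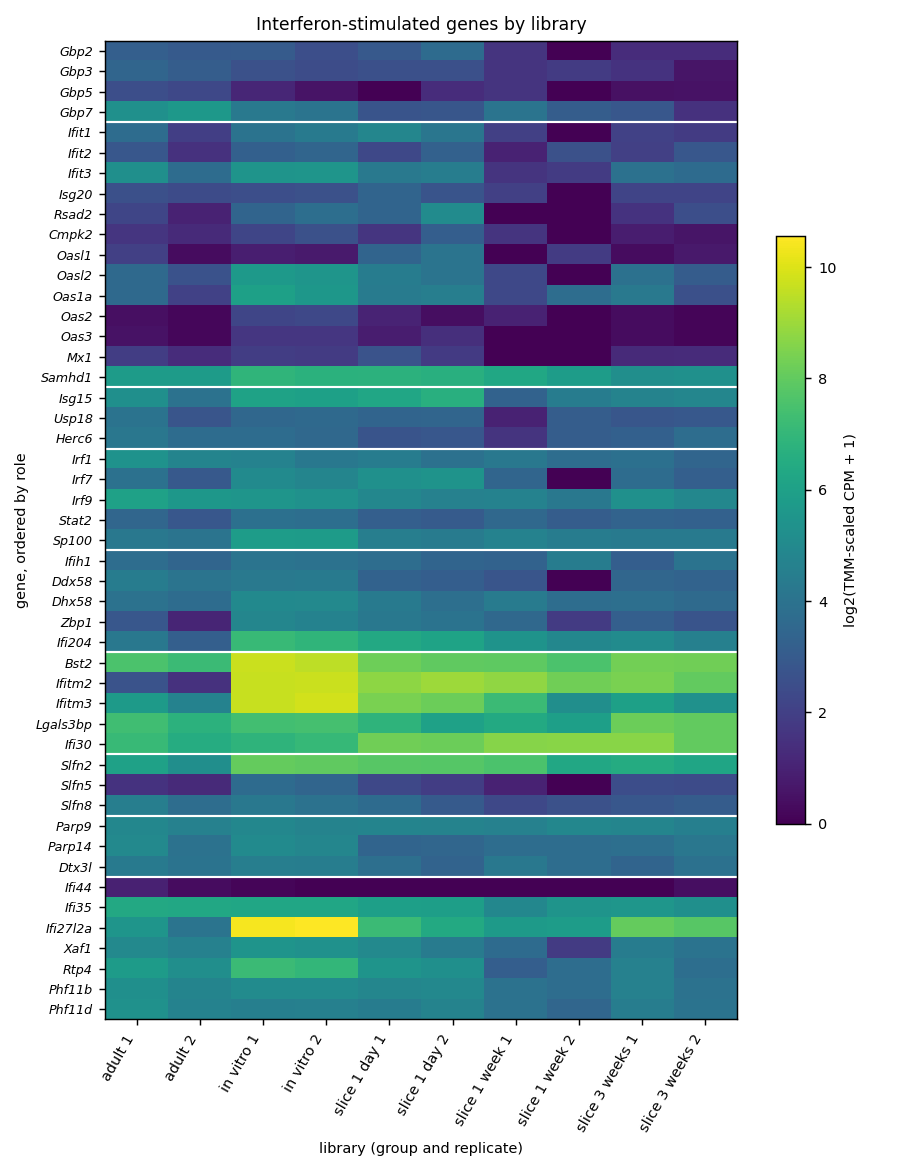
Heat map of the 48 genes (rows, ordered by role, white lines between roles) in the 10 libraries (columns), coloured by log2(TMM-scaled CPM + 1). The *in vitro* columns are the brightest for *Ifitm2*, *Ifitm3* and *Ifi27l2a*, while *Ifitm2* has 5.42 and 1.80 CPM in the adult libraries.

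Compared with adult, 20 of the 47 genes tested were higher in *in vitro* microglia and 2 were lower. Over all genes, 22.4% were called higher and 28.5% lower, so that *in vitro* rises were more frequent, and falls less frequent, in the set than in the table as a whole. The median log2 fold change was 0.67 over the set and -0.11 over all genes, and the set had 1.18 without adult replicate 1 and 0.34 without adult replicate 2. Counts of lower genes depended on single libraries, with 1 without adult replicate 1, 6 without adult replicate 2, 0 without *in vitro* replicate 2 and 4 without slice 3 weeks replicate 1, in fits that called between 17.5% and 26.0% of all genes lower. With scaling by library size alone, which moved the median of all genes to -0.42, the set held 19 higher and 6 lower genes, against 16.6% and 38.8% of all genes.

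The largest rise was in *Ifitm2*, which encodes a membrane protein that blocks the entry of viruses into the cell. It had 5.42 and 1.80 CPM in adult and 805 and 836 CPM *in vitro*. Both *in vitro* libraries were far above both adult libraries, with a log2 fold change of 7.75 ± 0.44 (SE, adjusted p = 3.3e-07). *Ifitm3*, a close relative with the same function, went from 52.1 and 24.3 CPM in adult to 802 and 909 CPM *in vitro* (4.47 ± 0.52, adjusted p = 4.2e-05). *Ifi27l2a*, a small hydrophobic protein induced by interferon alpha, went from 44.2 and 15.8 CPM to 1359 and 1498 CPM (5.56 ± 0.46, adjusted p = 4.3e-06). For these 3 genes the groups did not overlap, and without adult replicate 1 the log2 fold changes were 8.92 for *Ifitm2*, 5.23 for *Ifitm3* and 6.59 for *Ifi27l2a*. The 2 *Ifitm* genes lie on the minus strand of chromosome 7 in GRCm38, at chr7:140954837-140955987 and chr7:141009586-141010770. Their transcripts share sequence in part. Of the 50-base stretches in the last 500 bases of the transcripts, 41.9% in *Ifitm2* and 14.0% in *Ifitm3* also occur in other genes, each other included, so the split of reads between them is uncertain.

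*Bst2*, which tethers virus particles to the cell surface, had 190.4 and 144 CPM in adult and 844 and 716 CPM *in vitro*, a rise of 2.22 ± 0.19 on the log2 scale (adjusted p = 6.1e-06). The other members of the membrane and secreted group, *Lgals3bp*, a secreted glycoprotein, and *Ifi30*, a lysosomal thiol reductase used in antigen processing, did not pass, with log2 fold changes of 0.34 and 0.10. Among the nucleic acid sensors, 3 of 5 rose. *Ifi204*, a DNA sensor, rose by 3.26, *Zbp1*, which binds Z-form nucleic acids, by 2.66 and *Dhx58*, an RNA helicase, by 1.19. The RNA sensors *Ifih1* and *Ddx58* had log2 fold changes of 0.43 and 0.02 and did not pass. Of the 13 RNA-binding and nucleotide-acting effectors 6 rose: *Oas1a*, *Oas2*, *Oas3* and *Oasl2*, of the family that makes the activator of RNase L, with log2 fold changes of 2.87, 3.72, 2.73 and 2.46, *Rsad2*, which makes a chain-terminating nucleotide, with 2.17, and *Samhd1*, which degrades deoxynucleotides, with 1.02. *Oas1a* shares 56.1% of its end stretches with *Oas1g*, so its count is uncertain. In the adult libraries *Oas2* had only 5 and 1 UMIs and *Oas3* 6 and 1, so their changes from adult rest on few molecules. *Slfn2* and *Slfn5* of the Schlafen family rose by 2.38 and 2.68, and *Isg15*, a ubiquitin-like protein that is joined to other proteins, was called higher at 67.1 and 63.2 CPM against 37.3 and 14.6 CPM in adult. Without adult replicate 1 the log2 fold change of *Zbp1* was 4.56 and that of *Rsad2* 3.54, and that of *Isg15* was 2.26, against 0.80 without adult replicate 2. *Rsad2* was not called without adult replicate 2, at 1.65.

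Of the 5 transcription factors 3 rose *in vitro*. *Irf7*, which amplifies the type I response, had 14.4 and 6.70 CPM in adult and 32.2 and 27.1 CPM *in vitro* (1.45 ± 0.35, adjusted p = 0.0053). *Stat2*, a subunit of the complex that binds the response element, had 10.2 and 6.31 CPM in adult and 13.8 and 12.9 CPM *in vitro* (0.67 ± 0.23, adjusted p = 0.031). Without adult replicate 1 the values were 2.24 for *Irf7* and 1.18 for *Stat2*, and the call of *Stat2* was lost without any 1 of the other 3 libraries of the pair of groups. *Sp100*, a nuclear body protein, rose by 1.72. *Irf9*, with 44.3 and 39.9 CPM *in vitro*, and *Irf1*, with 24.3 and 17.7 CPM, had log2 fold changes of -0.41 and -0.67 and did not pass.

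Of the 4 guanylate-binding proteins, GTPases that gather on the membranes around intracellular microbes, 2 were lower *in vitro*. *Gbp5* had 4.76 and 3.86 CPM in adult and 1.19 and 0.477 CPM *in vitro*, with a log2 fold change of -2.38. *Gbp7* had 38.2 and 48.3 CPM in adult and 18.4 and 15.5 CPM *in vitro* (-1.35 ± 0.35, adjusted p = 0.0077). These are the 2 genes called lower, and *Gbp2* and *Gbp3*, with -0.34 and -0.87, did not pass. Neither call held without *in vitro* replicate 2, that of *Gbp5* was also lost without adult replicate 1 and that of *Gbp7* without adult replicate 2. The 4 genes lie together on the plus strand of chromosome 3, from the start of *Gbp5* at 142493978 to the end of *Gbp2* at 142638008. The 6 markers of border-associated macrophages summed to 2476 and 2375 CPM *in vitro* against 10.1 and 5.02 CPM in adult, mostly from *Pf4* and *Mrc1*, with *Lyve1* and *Cd163* at most 1.23 CPM in the 4 libraries. Their part in the rises of the set was not tested.

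**Figure D2:**
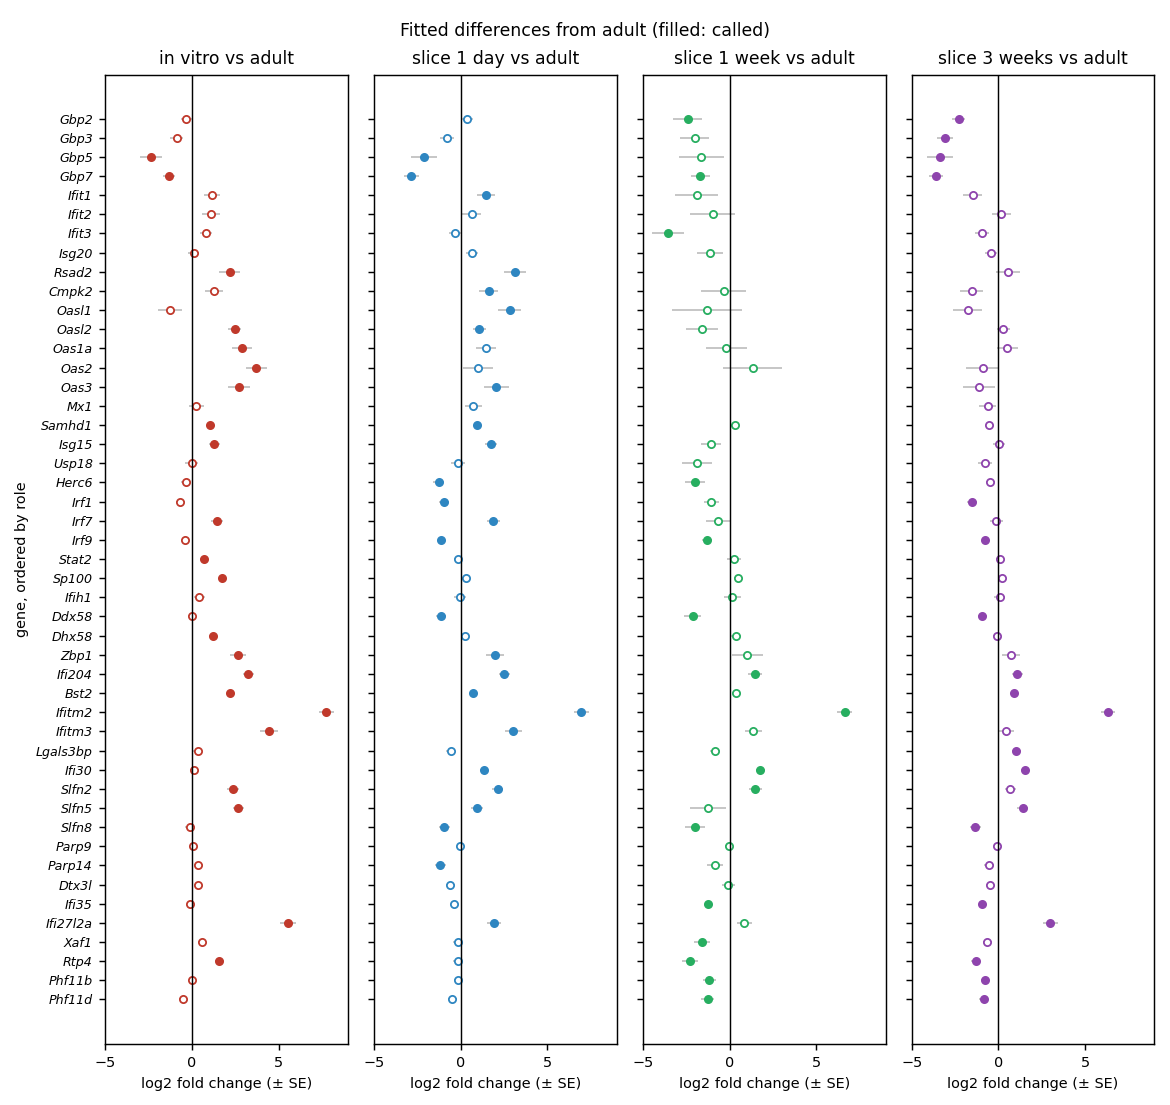
Fitted log2 fold change (± SE, x axis) of the 47 tested genes (y axis, ordered by role) in the 4 cultured groups against adult. Filled points were called, open points were not, and the 3 genes with 0 UMIs in slice 1 week (*Rsad2*, *Oas3*, *Mx1*) have no point there. *Ifitm2* stands at the right of every panel, and the 4 *Gbp* genes are all below 0 at 3 weeks.

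In slices cultured for 1 day, 18 genes of the set were higher than in adult and 8 were lower. Over all genes, 24.9% were called higher and 25.3% lower, and the median log2 fold change was 0.36 over the set and -0.06 over all genes. The median of the set was 0.78 without adult replicate 1, 0.17 without adult replicate 2 and 0.16 without slice 1 day replicate 1. Without adult replicate 1 the set had 19 higher and 2 lower genes, against 21.4% and 18.8% of all genes. With adult replicate 2 left out instead, 12 of 48 genes were higher and 10 lower, near the 21.0% and 21.5% of all genes in that fit. Without slice 1 day replicate 2 there were 4 lower, against 15.5% of all genes. With all cells holding at least 3 UMIs of neutrophil, monocyte or lymphocyte markers left out, which removed 82.6% and 100% of the 1 day cells, the set had 8 higher and 1 lower, in a fit that called 9.05% of all genes higher and 8.82% lower. Markers of other myeloid cells were also higher than in adult, those of border-associated macrophages with 303 and 264 CPM against 10.1 and 5.02 CPM, and those of monocytes with 183 and 389 CPM against 6.81 and 4.38 CPM. Their part in the changes of the set was not tested. *Ifitm2* again changed most, with 437 and 510.4 CPM (6.95 ± 0.42, adjusted p = 1.5e-06, and 8.07 without adult replicate 1). *Ifitm3* had 347 and 286 CPM (3.04 ± 0.49, adjusted p = 0.00045, and 3.74 without adult replicate 1).

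*Rsad2* had 3.59 and 1.03 CPM in adult and 9.70 and 32.6 CPM at 1 day, a rise of 3.14 ± 0.65 (adjusted p = 0.0028). The second 1 day library was well above the first. The log2 fold change was 2.02 without it and 4.45 without adult replicate 1. *Cmpk2*, the mitochondrial nucleotide kinase next to *Rsad2* on chromosome 12, rose by 1.60. Other effectors called higher at 1 day were *Ifit1*, *Oasl1*, *Oasl2*, *Oas3* and *Samhd1*, with log2 fold changes from 0.94 in *Samhd1* to 2.82 in *Oasl1*. *Ifit1*, which binds RNA ends that lack the host's cap methylation, had 12.2 and 2.83 CPM in adult and 27.5 and 16.9 CPM at 1 day (1.46 ± 0.50, adjusted p = 0.028). Its value was 2.98 without adult replicate 1, and the call was lost without adult replicate 2, at 0.84, and without slice 1 day replicate 1. The values of *Oasl1*, *Oas3*, *Oasl2* and *Isg15* were 5.63, 3.31, 1.80 and 2.63 without adult replicate 1 and 2.10, 1.58, 0.67 and 1.24 without adult replicate 2. *Oasl2* was then not called, nor was it without either 1 day library. *Oas3* was not called in 4 of the fits that left out a library, with 1.35 without slice 1 day replicate 2, and *Oasl1* was not called without that library. Without cells holding markers of other types, *Oas3* and *Oasl2* turned to values below 0 and were not called. That fit lost 82.6% and 100% of the 1 day cells, so few 1 day cells of 1 library are behind these values. *Cmpk2* had 0.30 without slice 1 day replicate 2 and was then not called. The neighbours of *Ifit1* on chromosome 19, *Ifit2* and *Ifit3*, had log2 fold changes of 0.63 and -0.32 and did not pass. *Isg15* had 37.3 and 14.6 CPM in adult and 73.7 and 101 CPM at 1 day (1.73 ± 0.35, adjusted p = 0.0018). *Herc6*, an enzyme that joins the Isg15 protein to its targets, fell by 1.28, and *Usp18*, which removes it, had -0.15. The call of *Herc6* was lost without adult replicate 1, at -0.95.

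Of the transcription factors, *Irf7* rose from 14.4 and 6.70 CPM in adult to 38.3 and 41.2 CPM at 1 day (1.88 ± 0.37, adjusted p = 0.0016). *Irf9*, the DNA-binding partner of the Stat proteins, fell from 64.3 and 47.3 CPM to 28.3 and 23.6 CPM (-1.12 ± 0.20, adjusted p = 0.001). *Irf1*, which is induced above all by type II interferon, fell from 40.2 and 26.3 CPM to 20.7 and 14.2 CPM (-0.97 ± 0.28, adjusted p = 0.015). *Stat2* had 10.2 and 6.31 CPM in adult and 8.13 and 7.11 CPM at 1 day, and did not pass. The other genes called lower were *Gbp7*, *Gbp5*, *Ddx58*, *Slfn8* and *Parp14*, with log2 fold changes from -2.85 in *Gbp7* to -0.96 in *Slfn8*. Nucleic acid sensors *Ifi204* and *Zbp1*, *Slfn2* and *Slfn5*, *Ifi30*, *Bst2* and *Ifi27l2a* were also called higher, with log2 fold changes from 0.72 in *Bst2* to 2.51 in *Ifi204*. Without adult replicate 1, *Zbp1* had 3.83 in place of 1.98 and *Ifi27l2a* 2.89 in place of 1.91. In the same fit *Irf1*, *Parp14* and *Slfn8* were no longer called, at -0.58, -0.50 and -0.46. Nor were *Gbp5*, *Ddx58* and *Herc6*, at -1.91, -0.88 and -0.95. Without adult replicate 2, *Gbp5*, at -2.24, and *Bst2*, at 0.53, were not called. In all, 13 of the 26 calls at 1 day were lost in at least 1 of the fits that left out a library. After removal of the cells in which neutrophil markers held over 2% of UMIs, 68 and 110 in the 1 day libraries, 18 genes were higher and 9 lower, against 25% and 25.4% of all genes, and the log2 fold change of *Ifitm2* was 6.63, that of *Ifitm3* 2.81 and that of *Rsad2* 3.19.

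At 1 week the libraries held 148 and 61 cells, more than the paper counted as microglia in its 1 week samples. Cells with at least 3 UMIs of neutrophil, monocyte or lymphocyte markers made up 100% and 21.3% of them. Of the set, 4 genes were higher than in adult and 12 lower. Over all genes, 15.0% were called higher and 13.6% lower. The median log2 fold change over the set was -1.08, or -0.83 with the 3 genes at 0 set to the bound that 3 counts over both libraries allow (2.14 CPM), against -0.08 over all genes. The median was -0.38 without adult replicate 1, and -2.20 without cells holding markers of other types, a fit that lost all 148 cells of replicate 1, with 2 higher and 4 lower genes, 4.61% and 4.14% of all genes called, and a median of -0.38 over all genes. Neutrophil markers stood at 43056 and 1018 CPM in the 1 week libraries, and without neutrophil-rich cells 4 genes were higher and 12 lower, against 13.7% and 13.9% of all genes. The counts rested on single libraries, since there were 7 higher and 5 lower without adult replicate 1, near the 12.8% and 8.92% of all genes in that fit, 2 higher and 1 lower without slice 1 week replicate 1, and 5 lower without slice 1 week replicate 2. Calls over all genes also fell in the last of these fits, to 11% lower, and without slice 1 week replicate 1, to 6.78% higher and 4.63% lower. *Ifitm2* (439 and 309.6 CPM), *Ifi30* (395 and 402 CPM), *Slfn2* (189 and 79.3 CPM) and *Ifi204* (41.5 and 28.1 CPM) were higher, by 6.63, 1.78, 1.49 and 1.48 on the log2 scale. Without adult replicate 1 the value of *Ifitm2* was 7.74, and without slice 1 week replicate 1 that of *Slfn2* was 0.69 and not called. Of the 16 calls at 1 week, 13 were lost in at least 1 of the fits that left out a library.

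*Ifit3*, of the RNA-binding *Ifit* family, had 1.98 and 2.56 CPM at 1 week, from 2 and 1 UMIs, against 37.1 and 12.2 CPM in adult (-3.55 ± 0.93, adjusted p = 0.016). The call was lost without either 1 week library, at -3.26 and -3.70, and the value was -2.47 without adult replicate 1. *Rtp4*, a chaperone of membrane receptors, had 7.91 and 12.8 CPM against 53.8 and 36.4 CPM in adult (-2.27 ± 0.47, adjusted p = 0.0048), and was not called without slice 1 week replicate 1. *Irf9* was lower at 24.7 and 17.9 CPM (-1.32 ± 0.28, adjusted p = 0.0061). *Irf7* had 9.88 and 0 CPM, *Irf1* had 17.8 and 12.8 CPM and *Stat2* had 10.9 and 7.68 CPM, and none of them passed. Other genes called lower were *Gbp2*, *Gbp7*, *Herc6*, *Ddx58*, *Slfn8*, *Ifi35*, *Xaf1*, *Phf11b* and *Phf11d*. Counts of *Phf11b*, *Slfn8*, *Phf11d* and *Ifit3* are uncertain, since 42.6%, 25.5%, 22.5% and 14.9% of their end stretches occur in other genes. At this depth 14 of the 48 genes had no UMI in replicate 2 and 5 had none in replicate 1. *Rsad2*, *Oas3* and *Mx1* had none in either, against adult means of 2.31, 0.284 and 2.16 CPM. For *Oas3*, below the 2.14 CPM bound, a loss was not detectable at this depth, and *Rsad2* and *Mx1* lay just above the bound and did not pass.

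At 3 weeks, 7 genes were higher than in adult and 12 were lower. Over all genes, 17.9% were called higher and 17.5% lower. The median log2 fold change was -0.50 over the set and -0.03 over all genes. This median turned to 0.14 without adult replicate 1, when 10 genes were higher and 7 lower, against 14.1% and 10.9% of all genes, so that the side on which most of the set fell depended on that library. With scaling by library size alone, which moved the median of all genes to -0.24, there were 7 higher and 19 lower, against 14.0% and 25.2% of all genes. Border-associated macrophage markers stood at 82.9 and 47.4 CPM at 3 weeks against 10.1 and 5.02 CPM in adult, and their part was not tested.

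The genes higher at 3 weeks were *Ifitm2*, *Ifi27l2a*, *Ifi30*, *Slfn5*, *Ifi204*, *Lgals3bp* and *Bst2*. *Ifitm2* had 346 and 259 CPM (6.31 ± 0.41, adjusted p = 4e-06, and 7.44 without adult replicate 1). *Ifi27l2a* had 265 and 220.2 CPM (3.00 ± 0.41, adjusted p = 0.00031, and 3.99 without adult replicate 1). *Ifitm3*, with 63.5 and 39.3 CPM, overlapped its adult range and did not pass. *Lgals3bp* had 157 and 108 CPM in adult and 292 and 255 CPM at 3 weeks, a rise of 1.04 that was not called without adult replicate 2, at 0.80, and it was not called in any other comparison with adult. *Ifi30* rose from 139 and 92.6 CPM to 407 and 261 CPM, by 1.52.

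All 4 guanylate-binding proteins were called lower at 3 weeks. *Gbp7* had 6.21 and 1.86 CPM against 38.2 and 48.3 CPM in adult (-3.60 ± 0.42, adjusted p = 0.00012), with values of -4.48 and -2.73 when one or the other 3 weeks library was left out. *Gbp5*, *Gbp3* and *Gbp2* had log2 fold changes of -3.38, -3.10 and -2.29. *Irf1* was lower at 13.8 and 9.74 CPM (-1.53 ± 0.28, adjusted p = 0.0018) and *Irf9* at 38.0 and 28.5 CPM (-0.76 ± 0.20, adjusted p = 0.011). *Irf7* (12.2 and 8.11 CPM) and *Stat2* (9.31 and 8.71 CPM) overlapped with adult. The other genes called lower were *Rtp4*, *Slfn8*, *Ifi35*, *Ddx58*, *Phf11d* and *Phf11b*, with log2 fold changes from -1.33 in *Slfn8* to -0.76 in *Phf11b*. *Irf9*, *Slfn8*, *Phf11d* and *Ddx58* were no longer called without adult replicate 1, at -0.46, -0.82, -0.42 and -0.66, nor was *Phf11b*, and without slice 3 weeks replicate 2 *Phf11b* had -0.38, not called, and *Rtp4* had -0.86 in place of -1.32. *Ifi204* had 1.84 without adult replicate 1 and 0.67, not called, without adult replicate 2. In all, 7 of the 19 calls were lost in at least 1 of the fits that left out a library. *Gbp7* was the one gene of the set called lower in all 4 comparisons with adult in the full fit. Its log2 fold changes were -3.60 at 3 weeks, -1.70 at 1 week, -2.85 at 1 day and -1.35 *in vitro*. The 1 week call, from 16 and 3 UMIs, was lost without adult replicate 1, at -1.83, and without adult replicate 2, at -1.55. *Ifitm2* and *Ifi204* were called higher in all 4 comparisons. The 4 comparisons use the same adult libraries and are not independent of each other.

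**Figure D3:**
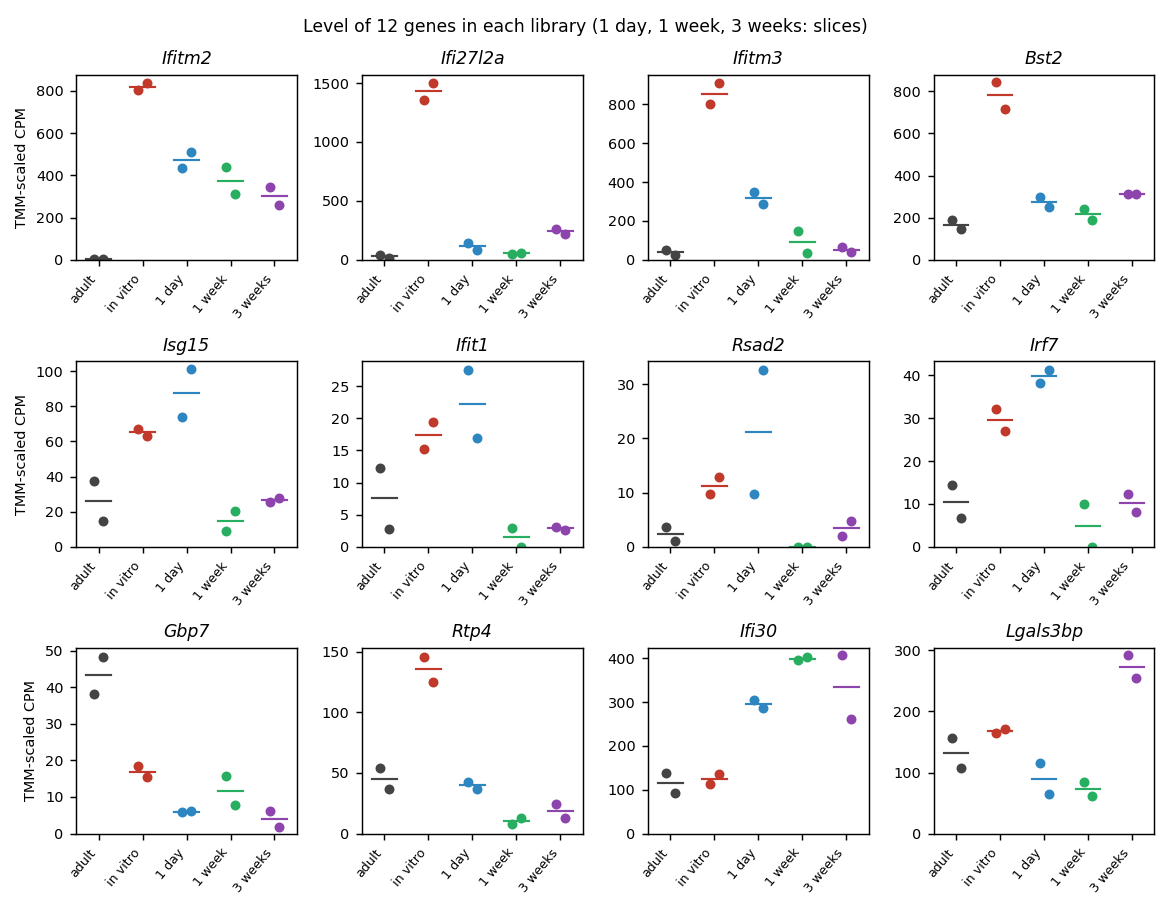
TMM-scaled CPM (linear y axis from 0) of 12 genes in the 5 groups, with 1 point for each library and a bar at the group mean. *Isg15*, *Ifit1*, *Rsad2* and *Irf7* have their highest group mean at 1 day, *Ifitm2*, *Ifi27l2a*, *Ifitm3*, *Bst2* and *Rtp4* *in vitro*, *Lgals3bp* at 3 weeks, *Ifi30* at 1 week and *Gbp7* in adult.

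*In vitro* microglia and slice microglia at 3 weeks had been in culture for the same time. Of the 47 genes, 32 were higher *in vitro* and 1, *Ifi30*, was lower. Markers of border-associated macrophages stood beside these rises at 2476 and 2375 CPM *in vitro* and 82.9 and 47.4 CPM at 3 weeks, and their part was not tested. Over all genes, 13.3% were called higher and 19.9% lower *in vitro*, and the median log2 difference was 1.29 over the set and -0.10 over all genes. *Ifitm3* had 802 and 909 CPM *in vitro* and 63.5 and 39.3 CPM at 3 weeks (4.06 ± 0.51, adjusted p = 0.00019). *Rtp4* had 146 and 125 CPM against 24.1 and 13.2 CPM (2.90 ± 0.28, adjusted p = 3.4e-05). *Ifit1* had 15.2 and 19.5 CPM against 3.10 and 2.61 CPM (2.63 ± 0.53, adjusted p = 0.0032). *Irf7* differed by 1.58 and *Irf1* by 0.86, and *Stat2* and *Irf9*, with 0.58 and 0.35, did not pass. The call of *Irf1* was lost without *in vitro* replicate 1 or slice 3 weeks replicate 2, and in all 6 of the 33 calls were lost in at least 1 of the fits that left out a library. *Ifi30* had 114 and 135 CPM *in vitro* and 407 and 261 CPM at 3 weeks (-1.42 ± 0.24, adjusted p = 0.0012). Every role was represented among the higher genes, including 3 of 4 guanylate-binding proteins, 8 of 13 effectors, 4 of 5 sensors and all 3 Schlafen genes.

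Within the slices, 15 genes were lower at 3 weeks than at 1 day and 1, *Lgals3bp*, was higher. Over all genes, 12.8% were called lower and 13.9% higher, and the median log2 difference was -0.65 over the set and 0.05 over all genes. Markers of other cells were also lower at 3 weeks, with 81.6 and 61.8 CPM against 7419.6 and 22075 CPM for neutrophils, 1.29 and 0.792 CPM against 183 and 389 CPM for monocytes and 82.9 and 47.4 CPM against 303 and 264 CPM for border-associated macrophages. Their part was not tested. *Ifit1* went from 27.5 and 16.9 CPM at 1 day to 3.10 and 2.61 CPM at 3 weeks (-2.95 ± 0.55, adjusted p = 0.0032). *Ifitm3* went from 347 and 286 CPM to 63.5 and 39.3 CPM (-2.63 ± 0.48, adjusted p = 0.0029). *Rsad2* went from 9.70 and 32.6 CPM to 1.94 and 4.80 CPM (-2.60 ± 0.61, adjusted p = 0.012), and the call was lost without slice 1 day replicate 2, at -1.41. Its value was -3.53 without slice 3 weeks replicate 2. *Irf7* fell by 2.01, *Isg15* by 1.71 and *Samhd1* by 1.48. Of the effectors, 7 of 13 fell and the other 6 did not pass. *Lgals3bp* went from 115 and 65.0 CPM to 292 and 255 CPM, by 1.61. The count of higher genes was 3 without adult replicate 1, 3 without adult replicate 2, 2 without slice 1 day replicate 1 and 2 without slice 3 weeks replicate 1, in fits that called between 8.69% and 17.7% of all genes higher. With the study label as a covariate, 24 genes were lower, against 14.8% of all genes. Of the 16 calls, 7 were lost in at least 1 of the fits that left out a library. With cells left out that held at least 3 UMIs of neutrophil, monocyte or lymphocyte markers, which removed 1 of the 1 day libraries whole, 0 genes were called in edgeR's test in either direction, and 1 higher and 9 lower had an unadjusted p under 0.05. That fit called few genes of any kind, with 0.783% of all genes higher and 0.662% lower. The median log2 difference in that fit was 0.01 over the set and 0.21 over all genes.

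The 2 adult libraries differed in most of the set. With 1 library on each side there is no replicate, and intervals cover counting error only. Of the 46 genes with at least 10 UMIs over both libraries, 45 were at or above their replicate 2 level in replicate 1, 24 by more than 1.5-fold, and none was lower by that fold. Over the 11755 genes with as many UMIs, 10.8% were more than 1.5-fold higher and 4.47% more than 1.5-fold lower in replicate 1. The median ratio of replicate 1 over replicate 2 was 1.52 over the set and 1.02 over all genes. For 30 genes the 95% interval lay above 1 and for *Gbp7* it lay below 1, against 16.6% of all genes above and 13.4% below.

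The highest ratios among genes with at least 50 UMIs were those of *Zbp1*, *Ifit1*, *Oas1a*, *Ifit2* and *Rsad2*. *Zbp1* had 87 UMIs (6.37 CPM) in replicate 1 and 9 (1.16 CPM) in replicate 2, a ratio of 5.50 with an interval of 2.77 to 12.4. *Ifit1* had 12.2 and 2.83 CPM (4.29, 2.74 to 7.03). *Oas1a* had 11.3 and 3.09 CPM (3.65, 2.36 to 5.87), *Ifit2* had 6.37 and 1.80 CPM (3.53, 2.00 to 6.73) and *Rsad2* had 3.59 and 1.03 CPM (3.48, 1.64 to 8.52). Better counted genes were also higher in replicate 1, among them *Isg15* with 509 and 113 UMIs (2.56, 2.09 to 3.17), *Ifit3* with 506 and 95 UMIs (3.03, 2.43 to 3.81) and *Ifi27l2a* with 604 and 123 UMIs (2.79, 2.30 to 3.42). The lowest ratios were those of *Gbp7* (0.792, 0.692 to 0.906), *Samhd1* (1.00, 0.887 to 1.13), *Ifi35* (1.02, 0.923 to 1.13), *Sp100* (1.14, 0.911 to 1.43) and *Parp9* (1.16, 0.975 to 1.39).

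By role, 8 of 11 effectors with enough UMIs were past 1.5-fold, with a median ratio of 3.03, and none of the 4 guanylate-binding proteins was, with ratios from 0.792 to 1.28. The transcription factors had ratios of 2.15 for *Irf7*, 1.61 for *Stat2*, 1.53 for *Irf1*, 1.36 for *Irf9* and 1.14 for *Sp100*. In a core list of 20 of the genes, those best known as direct targets of type I interferon, 14 of 18 were past 1.5-fold with a median ratio of 2.58, and the other 28 genes had 10 past it with a median of 1.33. In the other groups the median ratio of replicate 1 over replicate 2 over the set was 1.19 at 3 weeks, 1.38 at 1 week, 1.08 at 1 day and 1.06 *in vitro*. Erythrocyte markers moved with the adult difference, at 1680.1 and 0 CPM, as did depth, with median UMIs per cell of 3257 and 1858, and the study label. With cells thinned to 1500 UMIs, and the 278 and 856 cells below that depth left out, 20 of 45 genes were more than 1.5-fold higher and the median ratio was 1.46. Other lists that moved the same way were those of border-associated macrophages, at 10.1 and 5.02 CPM, and monocytes, at 6.81 and 4.38 CPM. The neutrophil list stood at 192 and 155 CPM, of which *Csf3r* gave 184 and 154, while *S100a8* had 4.10 and 0.129 CPM and *S100a9* 2.64 and 0.386 CPM. The lymphocyte list stood at 62.8 and 67.6 CPM, nearly all from *Cd79b*. Cells with at least 3 UMIs of neutrophil, monocyte or lymphocyte markers made up 8.03% and 2.10% of the libraries, and without them 22 of 46 genes were more than 1.5-fold higher. The part of the erythrocyte RNA was not tested, and the study label and the library cannot be told apart in adult.

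**Figure D4:**
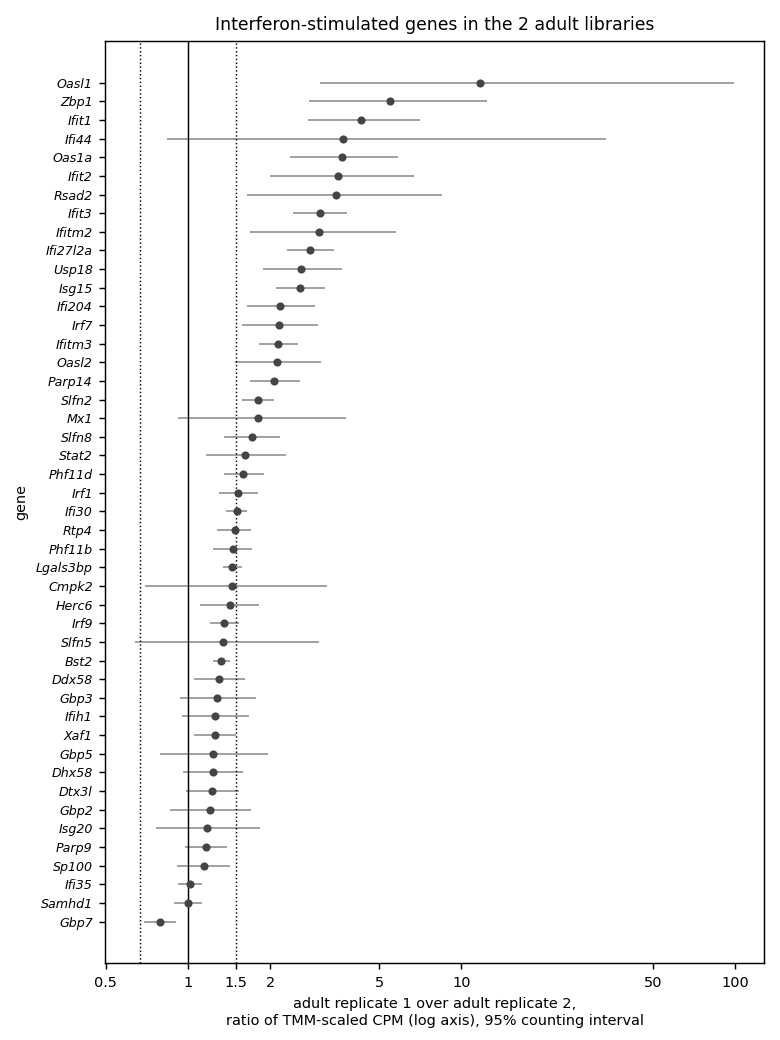
Ratio of adult replicate 1 over adult replicate 2 (x axis, log scale, TMM-scaled CPM) for the 46 genes with at least 10 UMIs over both libraries, with 95% counting intervals. The dotted lines mark 1.5-fold in each direction. All points but *Gbp7* lie at or to the right of 1, and *Oasl1*, with 41 and 2 UMIs, lies farthest to the right.

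The study label could be compared in part, since adult and slice 3 weeks each hold 1 library of each label. With group and label in 1 edgeR model, *Oas1a* was higher under the label of adult replicate 1 and slice 3 weeks replicate 1 (log2 difference 1.86 ± 0.25, adjusted p = 0.019), and no other gene of the set was called. Over all genes, 0.206% were called higher and 0.0411% lower. At an unadjusted p under 0.05, 17 of 47 genes of the set were higher and 0 lower, against 663 higher and 605 lower of all 12157 genes, and the median log2 difference was 0.43 over the set and 0.01 over all genes. *Oas1a* had 18.1 and 4.98 CPM in the 2 slice 3 weeks libraries. With only the 8 libraries of the other label fitted, which leaves 1 adult and 1 slice 3 weeks library, each taken to vary like the other groups, 26 genes were higher and 2 lower than adult *in vitro*, against 22.0% and 25.7% of all genes. At 1 day 19 were higher and 4 lower, against 23.7% and 23.0%. At 1 week 7 were higher and 8 lower, against 14.3% and 12.6%. At 3 weeks 10 were higher and 9 lower, against 17.8% and 16.1%, and the median over the set was -0.04. With all libraries and the label as a covariate, 8 genes were higher and 14 lower at 3 weeks than in adult, against 18.2% and 18.0% of all genes.

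The core list was also counted in single cells, after each cell had been thinned to 1500 UMIs. In adult, 2.56% of cells in replicate 1 (95% exact binomial interval 2.06 to 3.13) and 1.31% in replicate 2 (0.914 to 1.82) held at least 3 core UMIs. The shares were 10.1% and 8.80% *in vitro*, 6.42% and 4.73% at 1 day and 2.08% and 1.07% at 3 weeks. At 1 week, 0 of 141 and 0 of 56 cells did, for which 3 counts allow shares of up to 2.13% and 5.36% and the exact intervals reach 2.58% and 6.38%. Without thinning, the adult shares were 5.71% and 1.93% and the *in vitro* shares 74.7% and 71.9%. In slices the unthinned shares were 13% and 6.52% after 3 weeks, 7.43% and 6.56% after 1 week, and 20.5% and 22.9% after 1 day. In adult, the highest 1% of thinned cells held 37.1% and 30.9% of the core UMIs. That share was 11.2% and 14.5% *in vitro*, 21.9% and 31.8% at 1 day and 18.5% and 33.0% at 3 weeks. Without thinning it was 42.4% and 30.8% in adult, 10.1% and 13.2% *in vitro*, 26.8% and 43.4% at 1 day and 21.5% and 34.0% at 3 weeks. No class of cells that lacks these genes was set apart, so the share that free RNA gives was not measured, and *in vitro* cells were the deepest, with median UMIs of 12858 and 13966. Thinning left out 278 and 856 adult cells below 1500 UMIs and at most 7 cells in any other library.

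**Figure D5:**
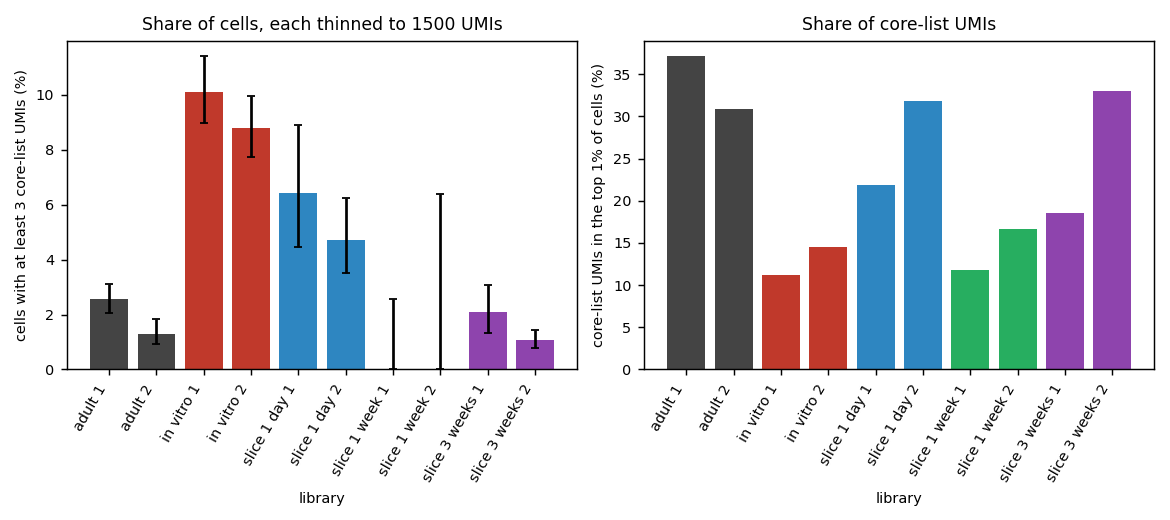
Left, percent of cells with at least 3 UMIs of the 20-gene core list in each library after thinning to 1500 UMIs, with 95% exact binomial intervals. Right, percent of the core UMIs that the highest 1% of these thinned cells hold. The *in vitro* libraries are the highest at left, at 10.1% and 8.80%, and adult replicate 1 is the highest at right, at 37.1%.

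Of the rest of the pathway, the ligands were barely read in these sorted cells. *Ifnb1* had 1 UMI in adult replicate 1 and 1 in slice 3 weeks replicate 2, and *Ifng* was not listed in any library. None of the 5 receptor genes tested was called higher in a cultured group than in adult by edgeR, and 0 of them were higher at an unadjusted p under 0.05. Between 15.0% and 24.9% of all genes were called higher in these comparisons. Of the 5 receptor genes, 1 was called lower *in vitro*, 3 at 1 day, 3 at 1 week and 2 at 3 weeks. Over all genes, the lower shares were 28.5%, 25.3%, 13.6% and 17.5%. *Ifnar1* lay between 53.2 and 79.3 CPM in all libraries and was not called in any comparison. *Ifnar2* had 229 and 222 CPM in adult, fell by 0.92 at 1 day and by 0.64 at 1 week, and had 233 and 221 CPM at 3 weeks. *Ifngr1* fell in every cultured group, by 1.48 in the oldest slices, 1.52 at 1 week, 2.23 at 1 day and 2.29 *in vitro*. *Il10rb*, a subunit shared with the type III receptor, fell by 0.92, 0.78 and 0.86 in the 3 slice groups.

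*Ptpn6*, a phosphatase that restrains receptor signals, fell by 0.70 *in vitro* and by 0.64 at 3 weeks. Of the 14 sensors and adaptors upstream of interferon, 6 or 7 were lower and 1 or 2 higher than adult in each cultured group, where between 13.6% and 28.5% of all genes were called lower and between 15.0% and 24.9% higher. *Tmem173*, the adaptor of cytosolic DNA sensing, had 415 and 333 CPM in adult and between 25.9 and 66.5 CPM in the other 8 libraries. *Ikbke*, a kinase upstream of interferon named after its values were seen, had 1 UMI over both adult libraries and between 13.8 and 40.4 CPM elsewhere. *Irf5* fell by between 0.62 and 0.98 in the 4 cultured groups and *Irf2* by between 1.00 and 1.25. *Irf8*, a macrophage identity factor, fell by 0.62 at 1 week, 1.10 at 1 day and 1.34 *in vitro*.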

How the data were processed

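Single cell RNA was measured with the 10x Genomics 3' kit (v2). The authors deposited a table of raw UMI counts for each library, made with Cell Ranger 1.3.0 against mm10 per the submitters' processing notes. Whether the tables precede any pooling of libraries is not given in the sources used here. The 13 symbols listed on more than 1 row of a table were summed, and none was a gene of the set.

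A cell was kept where mitochondrial genes held at most 5% of its UMIs and it had at least 400 genes and at most 30000 UMIs, which left 19059 of 19637 barcodes, and no doublet caller was run. Median UMIs per cell ran from 1858 to 13966 over the libraries, and total UMIs from 385373 to 39689540. Each library was reduced to the sum of its kept cells. All 10 libraries entered 1 model with the group as the only factor, TMM scaling and edgeR 4.0.16 quasi-likelihood tests (R 4.3.3, filterByExpr with a minimum count of 10, 12157 genes, biological coefficient of variation 18.3%), and p-values were adjusted by Benjamini-Hochberg over all genes. With 2 libraries in a group, an exact permutation test of a single gene could not go below p = 0.333. Ratios of the 2 adult libraries have exact 95% binomial intervals, which cover counting error only. The test was run on simulated data first.

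The set and all lists were chosen with earlier results of these data known. Genes were named where they had the 3 largest called changes of a comparison with a mean log2 CPM of at least 3, the 5 highest or lowest adult ratios with at least 50 UMIs, or the 5 highest mean levels, together with *Irf7*, *Irf9*, *Stat2* and *Irf1*. Other genes of the set are named as members of their role. Pathway genes were named where they were called in at least 2 comparisons with a mean above 50 CPM, besides *Ifnb1*, *Ifng*, *Ifnar1* and *Ikbke*, which were chosen after their values were seen. Results for 1 pathway gene are not reported here. Gene positions came from an annotation of GRCm38. Alternatives were DESeq2 1.42.0, other scaling, filters on genes and cells, thinned cells, covariates and leaving out each library, and the removal of neutrophil-rich cells and the fit of only the 8 libraries of 1 study label were added after seeing the data.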

Additional observations from a re-analysis of the deposited data

Results flagged for a closer look

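Within adult and within slice 3 weeks the 2 libraries carry the same pair of study labels, and 3 genes differed between replicates 1 and 2 in opposite directions in these groups, past 1.5-fold in both. *Ifit2* had a ratio of replicate 1 over replicate 2 of 3.53 in adult and 0.473 at 3 weeks. *Rsad2* had ratios of 3.48 and 0.404, the latter from 15 and 103 UMIs. *Oasl1* had ratios of 11.7 and 0.397, the latter from 2 and 14 UMIs, with a counting interval of 0.0438 to 1.73 that holds 1. The difference between the groups was not tested, as each ratio rests on 1 library a side. In the same 3 weeks libraries the plasmacytoid dendritic cell markers summed to 60.2 and 269 CPM, of which *Cox6a2* alone gave 45.4 and 248 CPM, while *Ccr9*, *Klk1* and *Spib* were at 0 in both libraries.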

How the results depend on the processing

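Of the 132 changes of single genes called over the 6 comparisons, 4 turned in direction, each without cells with markers of other types, namely *Oas3* and *Oasl2* at 1 day against adult and *Oas3* and *Gbp3* at 3 weeks against 1 day. Of the 150 that were not called, 86 turned under at least 1 alternative. Leaving out 1 library lost 50 of the 132 calls and moved 37 of their log2 values by over 1.5 times in at least 1 case, and the median of the set at 3 weeks against adult turned from -0.50 to 0.14 without adult replicate 1. Counts of called genes moved by over 1.5 times as follows. With library size alone, genes lower than adult were 6 *in vitro* and 19 at 3 weeks, and 2 genes were lower *in vitro* than at 3 weeks. The shares of all genes called lower there were 38.8%, 25.2% and 23.5%. With no filter on low counts, lower genes were 4 *in vitro*, 21 at 1 week and 2 *in vitro* against 3 weeks, 4 genes were higher at 3 weeks than at 1 day, and 13 genes were higher under the study label. Of all genes, 18.1%, 11.3% and 13.9% were lower in the first 3 of these, and 11.6% were higher at 3 weeks than at 1 day. With cells thinned, lower genes were 4 at 1 day, 3 at 1 week and 2 *in vitro* against 3 weeks, out of 45 tested, against 19.2%, 6.37% and 16.2% of all genes. In the thinned cells 2 genes were higher under the study label. With only the groups compared, 2 genes were lower *in vitro* than at 3 weeks, against 16.7% of all genes, and 2 were higher at 3 weeks than at 1 day, against 9.23%. Under the study label 2 were higher. DESeq2 called 2 genes higher at 3 weeks than at 1 day, against 8.13% of all genes, and the study label as a covariate gave 24 lower, against 14.8%. Without cells with markers of other types, which left 8 libraries, there were 8 higher and 1 lower genes at 1 day and 2 higher and 4 lower at 1 week against adult, 2 lower *in vitro* than at 3 weeks, and 0 higher and 0 lower at 3 weeks against 1 day. With only the 8 libraries of 1 study label, 4 genes were lower at 1 day and 7 higher at 1 week against adult, and 4 were higher and 24 lower at 3 weeks than at 1 day. Without neutrophil-rich cells, 2 genes were lower *in vitro* than at 3 weeks, against 20.5% of all genes, and 2 higher at 3 weeks than at 1 day, against 13.9%. Leaving out 1 library at a time gave 0 to 6 lower *in vitro*, 2 to 10 lower at 1 day, 2 to 7 higher and 1 to 16 lower at 1 week, 7 to 17 lower at 3 weeks, 1 to 2 lower *in vitro* against 3 weeks and 1 to 3 higher at 3 weeks against 1 day. Groups left with 1 library were taken to vary like the others. Replicate numbers did not pair the libraries, with correlations of deviations from -0.11 to 0.0951, and with the replicate block 2 genes were lower *in vitro* than at 3 weeks and 2 were higher at 3 weeks than at 1 day. The cause of these moves was not tested beyond the smaller number of cells, genes or libraries that some settings leave. At 1 week, depth limits the lowest level that 3 counts allow to 2.14 CPM.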
